A study of Anguilla anguilla with 15 samples.

Results

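The 100 contigs described here were the steadiest near-pool transcripts on an array of European eel (Anguilla anguilla) gonads. A contig is an assembled transcript sequence with a probe on the array. Each array compared the RNA of 1 gonad sample, labelled with the dye Cy3, with 1 common reference, labelled with Cy5. That reference was gonad RNA pooled from 30 wild eels caught at Certes. There were 8 arrays of gonads from Certes, a site the submitters call clean, and 7 from Gironde, which they call contaminated. The series title places the animals, all female, in artificial gonad maturation. The labels used here give no stage, age, hormone treatment or contaminant level for a sample, and they do not say in words that every sample was a different eel. What the groups share is the tissue and the pool of Certes gonads that serves as reference for both.

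The contigs were chosen from their measured values. Of 992 contigs, 71 with an empty cell on any array were left out, as were 372 whose mean log2 ratio to the pool was 1 or more in both sites or -1 or less in both. For the 549 left, the SD within Certes and within Gironde was pooled over both sites (13 degrees of freedom), and the 100 contigs with the smallest pooled SD were taken. The low spread and the nearness to the pool are therefore how these contigs were picked, and neither is a finding. The other 449 near-pool contigs serve as the set to compare them with.

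Eels carry an immature ovary for most of their life. Oocytes take up yolk during maturation, which in captivity is brought about with hormones, and many transcripts of the ovary change as oocytes grow. Transcripts that vary little between animals are of use as internal references when others are measured, for example in quantitative PCR. The deposited tables identify transcripts by contig number only, and 0 of the 992 numbers could be matched to the 31451 genes of RefSeq's table for the eel. No gene name, function or sequence is therefore given, no marker could be checked against the labelled tissue, and no pathway could be described.

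The values are log ratios, in which 0 is the level of the pool. They were taken as log2, in which 1 is a 2-fold difference, and as sample over pool. Neither base nor direction is stated with the table, and both are likely and not certain. With base e, every factor given below would be larger. If the table held the inverse ratio, every sign and every higher or lower below would turn, and the SDs and sizes would stay. Values per array were present for 953 to 991 contigs. Precision is limited by having 8 and 7 arrays. The 100 contigs have a value on every array by their choice.

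The pooled SD of the 100 contigs ran from 0.118 to 0.280 with a median of 0.246. As a distance of 1 SD from the site mean, this is a factor of 1.19, and single gonads can differ from each other by more. In the other 449 near-pool contigs the median was 0.455, a factor of 1.37. The last contig inside the limit was contig_31637 with a pooled SD of 0.280, and the first outside was contig_16779 with 0.282. The limit marks no gap in the values. In contig_31637 the Certes arrays lay between -0.29 and 0.48 (median 0.0053) and the Gironde arrays between -0.31 and 0.40 (median 0.095). In contig_16779 they lay between 0.50 and 1.35 (median 0.79) and between 0.60 and 1.18 (median 0.81). Both contigs had overlapping sites.

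The steadiest contig of all was contig_39900, with a pooled SD of 0.118, a factor of 1.09. Its Certes arrays lay between 0.20 and 0.50 (median 0.39) and its Gironde arrays between -0.042 and 0.38 (median 0.096). Gironde 3, at 0.38, was the only Gironde array within the Certes range. All other Gironde arrays lay below Certes 6, which at 0.20 was the lowest of Certes. The site means were 0.37 ± 0.10 (SD, n = 8) and 0.12 ± 0.14 (SD, n = 7), and the difference, Gironde minus Certes, was -0.24 ± 0.12 (SE; limma, adjusted p = 0.525). The second steadiest was contig_15155, with a pooled SD of 0.154. It lay between -0.46 and 0.057 (median -0.17) on the Certes arrays and between -0.40 and -0.18 (median -0.23) on the Gironde arrays. Every Gironde array of contig_15155 fell inside the Certes range, and the difference was -0.11 ± 0.13 (SE; limma, adjusted p = 0.809).

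Levels against the pool were spread over the whole window that the choice allowed. The mean of the 2 site means was above 0 in 56 of the 100 contigs and below 0 in 44, with a range from -1.11 to 1.02 and a median of 0.071. In 9 contigs 1 site mean was 1 or more from the pool while the other was not. At least 1 site mean that far from the pool was found in 86 of the other 449. Single values ran from -1.62 to 1.46. On all 15 arrays 29 contigs lay above the pool and 15 below it, against 51 and 71 of the other 449. There were 56 with arrays on both sides of it, against 327 of the other 449 (72.8%). A small SD by itself tends to leave fewer contigs on both sides, so nothing is read from the contrast with the others. In 69 contigs all 15 values were within 1 of the pool, and in 14 all were within 0.5, which was not counted in the other contigs. By the range of their levels, the 100 steadiest contigs thus did not all sit at the level of the pool. Across the near-pool contigs the pooled SD had little relation to the distance from the pool (Spearman's rho 0.11 over 549 contigs, which share the arrays and the reference). The window limited that distance. In the 372 contigs left out as far from the pool, the median SD was 0.464 in Certes and 0.519 in Gironde. It was 0.374 and 0.427 in the 549.

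**Figure D1:**
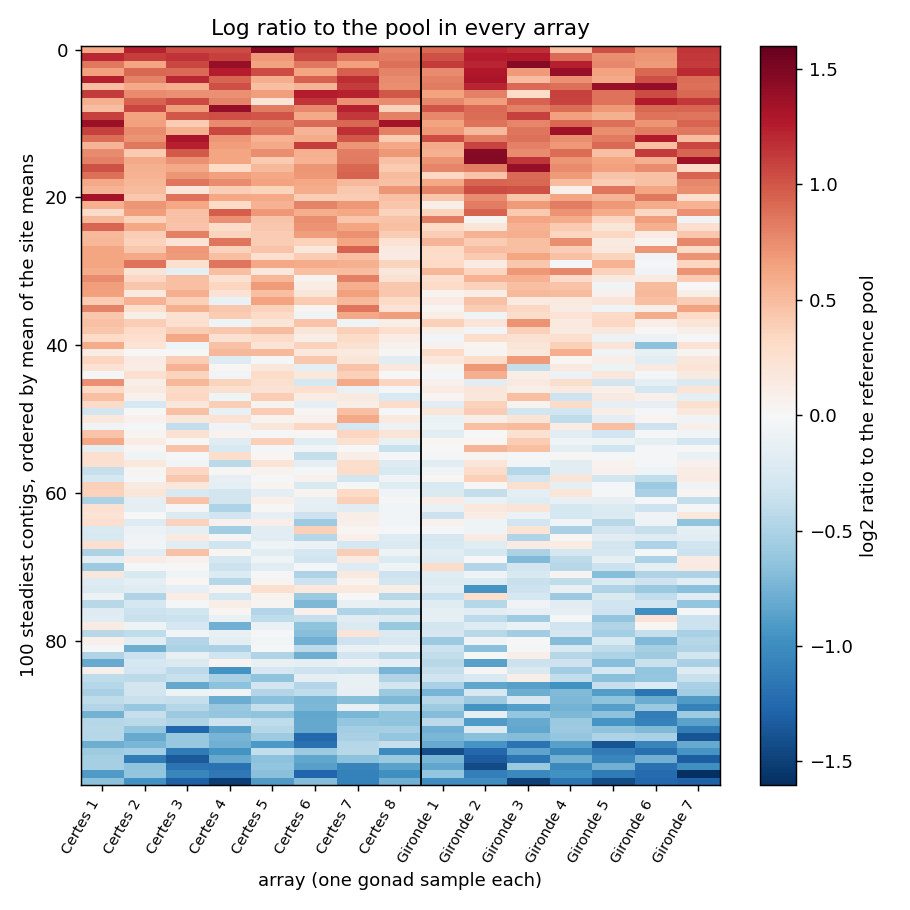
Log2 ratio to the reference pool of the 100 steadiest near-pool contigs (rows, ordered by the mean of the site means) on the 8 Certes and 7 Gironde arrays (columns, separated by the black line). Colour runs from blue, below the pool, to red, above it, and a row keeps much the same colour from array to array, with single values between -1.62 and 1.46.

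The levels of the contigs were much alike in both sites, which their choice partly builds in. Certes means and Gironde means of the 100 contigs were correlated with a Pearson r of 0.965 across contigs, which are not independent replicates and share the pool and dyes. This correlation was not computed for the other contigs, so it is not shown to be particular to the 100. The choice by small SD within sites also leaves little room for chance differences between site means, set against the spread of levels. A high r is therefore partly built in, and nothing is read from its size. Both site means were above the pool in 49 contigs and below it in 38, and in the other 13 the site means lay on opposite sides. Of the 1500 values, 1466 were within 0.5 of the mean of their own site and 34 were further away. The furthest was 0.726 from its site mean, on Gironde 6. Per array, between 0 and 5 of the 100 contigs were 0.5 or more from their site mean. The choice by small SD tended to leave out contigs with such values, so nothing about the arrays is read from these counts.

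Distance from the site mean was next taken per array over all 100 contigs, as a root mean square on the log2 scale. It lay between 0.158 (Certes 2) and 0.265 (Certes 1) in Certes, with a mean of 0.216 ± 0.040 (SD, n = 8). In Gironde it lay between 0.174 (Gironde 1) and 0.263 (Gironde 6), with a mean of 0.222 ± 0.036 (SD, n = 7). The 2 sites overlapped over nearly their whole ranges. Over the other 449 near-pool contigs the same distance was 0.467 ± 0.066 in Certes (0.380 to 0.578) and 0.589 ± 0.059 in Gironde (0.505 to 0.668). There the Gironde mean was the larger, and the ranges overlapped in part. These distances were used in the choice of the 100 contigs and were not tested.

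Part of what spread remained was shared by the contigs. The arrays had been centred on the median of all contigs, which was 0 on every array, but the median over the 100 contigs differed between arrays. It was 0.29, 0.26, 0.24 and 0.18 on Certes 1, 7, 3 and 5, and 0.093, 0.051, 0.038 and -0.019 on Certes 2, 6, 4 and 8. In the order of the sample identifiers the Certes medians thus alternated between higher and lower. No label names a batch, and the source of this was not tested. In Gironde it was highest on Gironde 3 at 0.18 and lowest on Gironde 5 at -0.058, with the other 5 arrays between -0.045 and 0.13. Most arrays thus had a median above the pool, and Certes 8, Gironde 5 and Gironde 6 had one below. A shift of all 100 contigs together, array by array, held 8.92% of their squared deviation from the site means. In the other near-pool contigs it held 1.24% of a larger total. Such a share tends to be larger in a smaller set, here 100 against 449 contigs, so the 2 percentages are not on equal terms. With each array's median deviation over the 100 contigs removed, the median pooled SD went from 0.246 to 0.232, so little of the spread went with that common shift.

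**Figure D2:**
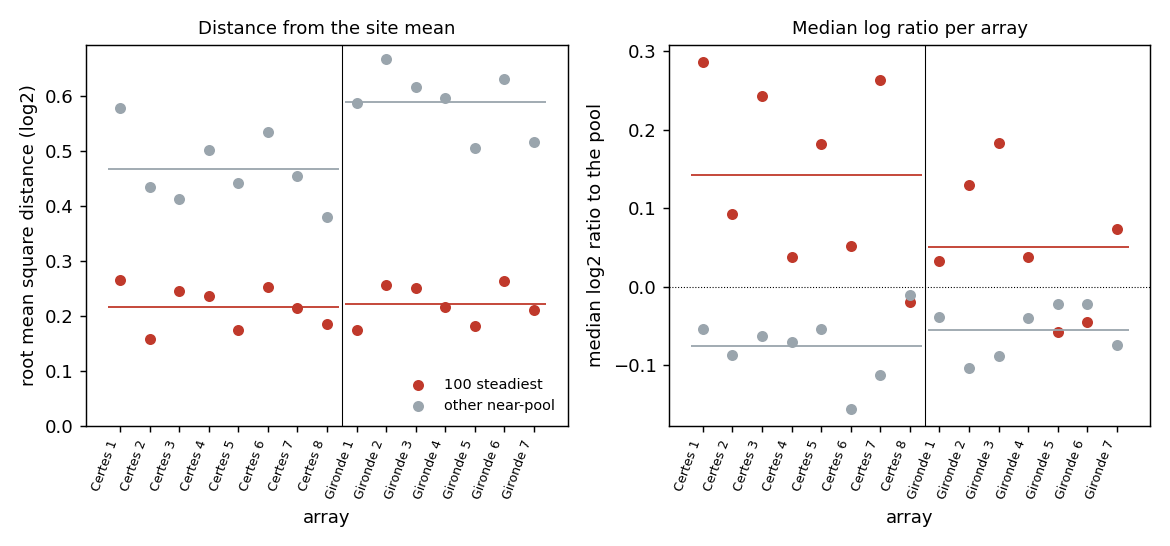
Values per array (points) and their site means (horizontal lines) for the 100 steadiest contigs (red) and the other 449 near-pool contigs (grey). On the left is the root mean square distance from the site mean, where the red points lie between 0.158 and 0.265 in both sites and the grey ones between 0.380 and 0.668, and on the right is the median log2 ratio to the pool, where Certes 1, 3, 5 and 7 have the higher red points of Certes.

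Pairs of contigs varied together only loosely. After removal of the site means, Pearson's r over the 15 arrays had a median of 0.088 over the 4950 pairs among the 100 contigs, with the middle 50% of pairs between -0.14 and 0.32. The lowest was -0.86 and the highest 0.89, and 12 pairs (0.242%) were over 0.8. Among the other near-pool contigs the median was -0.0062, the middle 50% lay between -0.25 and 0.25, and 0.785% of pairs were over 0.8. These correlations share all arrays, the pool and the centring, and they are given as a description.

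The comparison of Certes with Gironde asks which transcripts differ between gonads from the site called clean and the site called contaminated. No contig among the 100 passed an adjusted p of 0.05 (0 contigs; limma, two-sided, Benjamini-Hochberg over all 992 contigs), where 0.101% of all contigs did. At an unadjusted p of 0.05, 7 of the 100 passed, 1 higher and 6 lower in Gironde, where 9.68% of all contigs passed, 4.54% higher and 5.14% lower. With unequal variances per contig the count at the adjusted threshold was 0, as over all contigs (0.00%). At the unadjusted one it was 15, 1 higher and 14 lower in Gironde, where 7.66% of all contigs passed, 3.53% higher and 4.13% lower. The share of the 100 contigs was thus below that of all contigs in limma and above it with unequal variances. The SD that chose these contigs is also the denominator of the test, so nothing is read from these counts. In limma each SD is drawn towards that of all contigs, and the standard errors of all 100 contigs were larger than their own SDs gave (median 0.154 against 0.127). In 0 of the 100 contigs did all Gironde arrays lie above or all below the Certes arrays, which held for 0.202% of all contigs.

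The differences themselves were small. The difference of site means, Gironde minus Certes, ran from -0.49 to 0.37 over the 100 contigs. Its size had a median of 0.10, a factor of 1.07, against 0.20 and a factor of 1.15 in both the other near-pool contigs and all 992. It was under 0.1 in 49 of the 100 contigs and in 27.6% of the other near-pool contigs, and over 0.25 in 13 and in 40.8%. In 72 of the 100 contigs both ends of the 95% interval were less than 0.5 from 0, against 19.0% of all contigs. Both ends were less than 1 from 0 in all 100, against 72.0%. These intervals are per contig, are narrow partly because small SDs were chosen, and hold for the deposited array scale.

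Set against the spread of each contig, the differences were of about the same size as in the other near-pool contigs. The size of the difference divided by the pooled SD had a median of 0.437 in the 100 contigs and 0.443 in the other near-pool contigs. The denominator is the SD that chose the 100 contigs, which tends to raise this ratio in them. Contigs with less spread among gonads of a site also had site means that lay closer together, in about the same proportion. Means of few arrays stray from each other in proportion to that spread even where sites do not differ, so this is a description and was not tested.

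More of the 100 contigs had the lower mean in Gironde. There were 72 such contigs and 28 with the higher mean in Gironde, against 53.6% lower of all contigs and 54.3% of the other near-pool contigs. The median difference was -0.080 in the 100 contigs and -0.024 in the other near-pool contigs. It was lower in Gironde on both sides of the pool, in 36 of the 56 contigs above the pool and in 36 of the 44 below it. The median over the 100 contigs per array, given above, was 0.14 ± 0.12 (SD, n = 8) in Certes and 0.051 ± 0.087 (SD, n = 7) in Gironde, and these ranges overlapped. Certes 1, 3 and 7, at 0.29, 0.24 and 0.26, lay above all Gironde arrays. The other Certes arrays lay within the Gironde range of -0.058 to 0.18. These 3 arrays are among the higher ones of the Certes alternation described above, and its part in the 72 contigs was not tested. Since contigs on 1 array shift together, the 72 contigs are not 72 separate observations.

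The contig with the lowest difference was contig_32220. Its Certes arrays lay between -0.23 and 0.25 (median 0.071) and its Gironde arrays between -0.95 and -0.11 (median -0.48). All Gironde arrays were below the pool, and Gironde 1 and 4 reached into the range of the Certes arrays. The means were 0.019 ± 0.18 (SD, n = 8) and -0.47 ± 0.29 (SD, n = 7), which differed by -0.49 ± 0.15 (SE). The 95% interval ran from -0.81 to -0.17, and the adjusted p of limma was 0.327. The interval rests in part on the SD that chose the contig, so nothing is read from its leaving out 0. Next came contig_38124, between -1.13 and -0.40 (median -0.57) in Certes and between -1.42 and -0.84 (median -1.12) in Gironde. Certes 3, 4 and 8 lay among the Gironde arrays, and the other 5 Certes arrays lay above them. The sites differed by -0.42 ± 0.15 (SE), with an interval from -0.74 to -0.090 and an adjusted p of 0.361 in limma.

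The most positive difference was that of contig_10762. Its Certes arrays lay between 0.48 and 1.12 (median 0.59) and its Gironde arrays between 0.83 and 1.40 (median 0.90). Certes 4 and 7 lay among the Gironde arrays, and the other Certes arrays were below all of them. The means were 0.70 ± 0.25 (SD, n = 8) and 1.07 ± 0.25 (SD, n = 7), which differed by 0.37 ± 0.16 (SE). The 95% interval ran from 0.046 to 0.70, and limma gave an adjusted p of 0.422. The second was contig_15916, between 0.41 and 0.83 (median 0.62) in Certes and between 0.57 and 1.46 (median 0.71) in Gironde. Gironde 2, 7 and 3, at 1.46, 1.36 and 1.14, stood above all Certes arrays, and the other 4 Gironde arrays lay within the Certes range. Its SD was 0.37 in Gironde and 0.15 in Certes, and the sites differed by 0.31 ± 0.16 (SE; interval -0.039 to 0.66, limma adjusted p = 0.525). With arrays scaled to equal median absolute deviation the difference was 0.17, and with equal SDs 0.19. In the same order, contig_10762 had 0.26 and 0.27, contig_38124 -0.31 and -0.31, and contig_32220 -0.44 and -0.45. The differences of these 4 contigs are the extremes of 100 and were chosen as such, among contigs chosen for a small SD. Their intervals therefore do not have 95% coverage and are given as a description.

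**Figure D3:**
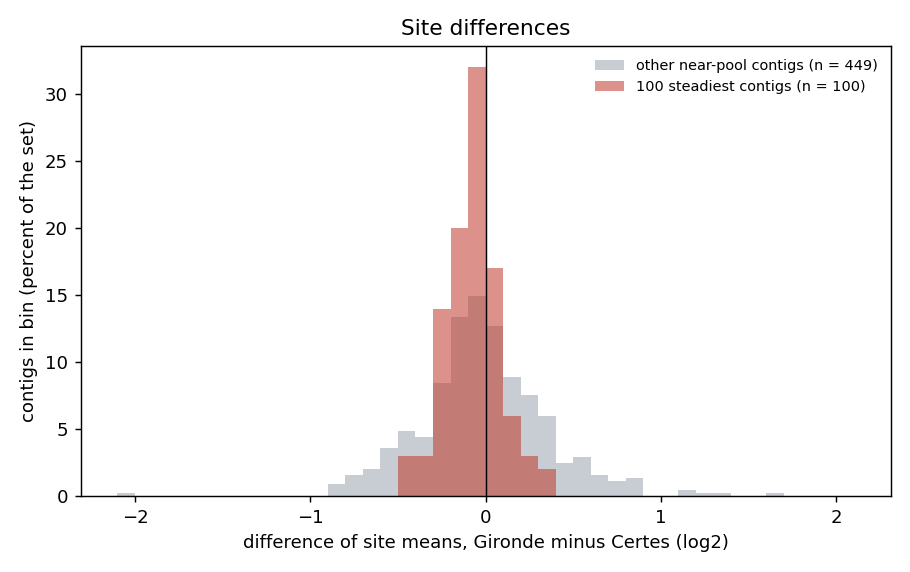
Difference of the site means, Gironde minus Certes, on the log2 scale (bins of 0.1), as the percent of the 100 steadiest contigs (red) and of the other 449 near-pool contigs (grey). The red values run from -0.49 to 0.37 with more of them below 0, and the grey ones from -2.03 to 1.65.

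Spread was similar in both sites. The SD within Certes had a median of 0.228 over the 100 contigs (0.101 to 0.359) and the SD within Gironde one of 0.236 (0.048 to 0.373). The ratio of Gironde to Certes SD had a median of 1.06, and it was above 1 in 59 of the 100 contigs. In the other near-pool contigs its median was 1.17, and 64.6% were above 1. The choice limits the pooled SD, so a contig with a large SD in 1 site could enter only with a small one in the other, and these ratios were not tested. Within the 100 contigs Spearman's rho of the 2 SDs was -0.17, which the choice itself bears on, against 0.61 over the 549 near-pool contigs.

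**Figure D4:**
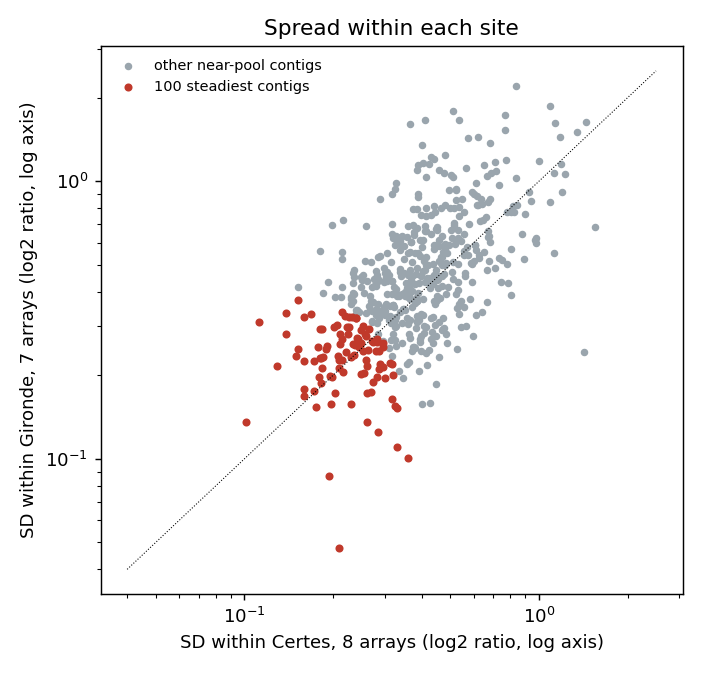
SD of the log2 ratio within Certes (horizontal, 8 arrays) and within Gironde (vertical, 7 arrays) for the 100 steadiest contigs (red) and the other 449 near-pool contigs (grey), both axes logarithmic, with the line of equal SDs dotted. The red points straddle the line between 0.101 and 0.359 in Certes, and the cloud as a whole rises from the lower left to the upper right.

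Steadiness was then read with new lists, chosen by the SD and mean of 1 site and read by the SD in the other. Only contigs with a value on every array entered, so the arrays read took part in that filter. The 100 contigs described here were chosen on all arrays, so this reading is of the new lists and no separate check of those 100. The 100 contigs with the smallest SD in Certes alone, of 537 whose Certes mean was within 1 of the pool, had a median SD of 0.287 on the Gironde arrays, against 0.461 in the other contigs of that set. Of these 100, 86 were below the median Gironde SD of the set, against 41.6% of the others. With the sites exchanged, the 100 steadiest of 466 in Gironde had a median SD of 0.272 on the Certes arrays, against 0.386 in the others, and 80 of them were below the median Certes SD, against 41.8%. The held-out median SD was thus 0.622 and 0.705 times that of the other contigs. The SD in the site that made the choice was lower in both cases, 0.215 in Certes and 0.229 in Gironde. Each of these lists held 69 of the 100 contigs described here. That is partly built in, since the pooled SD that chose those 100 is made from the same site SDs. In both lists were 44 contigs, which is 44% of each. The sets of 537 and 466 shared 454 contigs, so lists without any relation would also overlap in part. The overlap was not tested. The contigs chosen in 1 site thus had a lower median SD than the rest in the other site as well. All arrays share the probes, the pool and the dyes, so steady measurement and steady transcript levels cannot be told apart here.

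Brightness in the reference pool was a readout that the choice did not use as such. It was taken from the reference channel of 1 slide, as the median intensity of the 3 spots of a contig, before any background was removed. That channel is also part of the ratio of 1 array. None of the 100 contigs lay in the dimmest 25% of the 992 contigs (0 contigs), 9 lay in the next 25%, 50 in the third 25% and 41 in the brightest 25%. Among the other near-pool contigs the shares were 21.4%, 25.4%, 25.6% and 27.6%, and of the 100 most variable near-pool contigs 44 were in the dimmest 25%. The intensity of the 100 contigs had a median of 325 and ran from 212.5 to 2126.5, against a median of 256 in the other near-pool contigs and 246.5 in all.

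Dim contigs had the wider spread, and the brightest were not the steadiest. From the dimmest to the brightest 25% of the array, the median pooled SD of near-pool contigs was 0.608, 0.438, 0.338 and 0.370. In the same order, 0 of 96, 9 of 123, 50 of 165 and 41 of 165 near-pool contigs were among the 100. Very bright contigs were few: 6 of the 100 were among the brightest 10% of all contigs, against 11.6% of the other near-pool contigs. Spearman's rho of brightness and pooled SD was -0.34 over the 549 near-pool contigs and -0.052 within the 100. The 9 contigs below the median brightness had a median level of 0.79 and 8 of them lay above the pool, against a median of 0.046 and 48 of 91 in the brighter ones. This was not particular to the 100: Spearman's rho of brightness and level was -0.38 within them and -0.36 over all contigs. The direction of the ratio was itself taken from this relation, so its sign, and dim contigs lying above the pool, are no finding. In that direction the pool is also the denominator of the level. The part of brightness in the steadiness of these contigs was not tested.

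**Figure D5:**
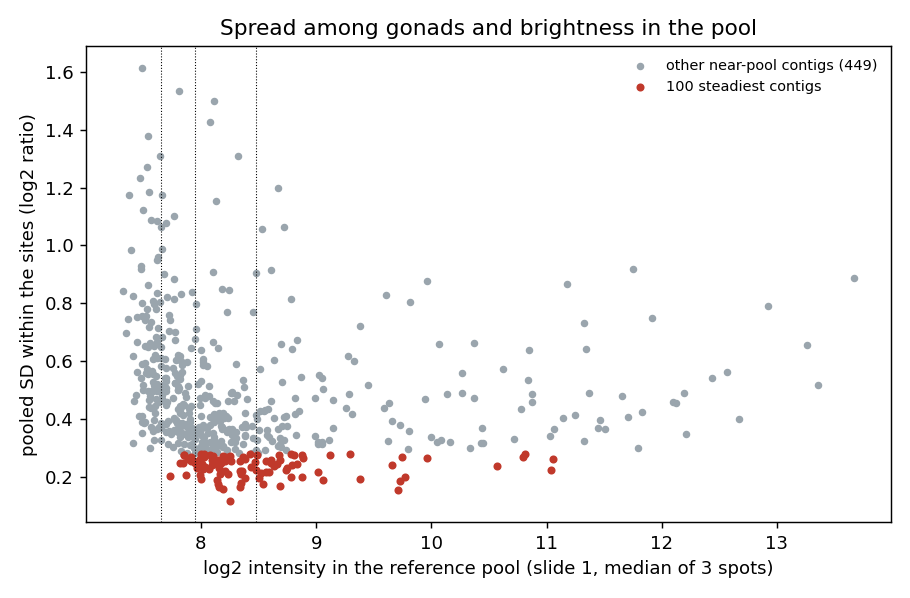
Pooled SD within the sites (vertical) against log2 intensity in the reference channel of 1 slide (horizontal) for the 100 steadiest contigs (red) and the other 449 near-pool contigs (grey). Dotted lines are the quartiles of all 992 contigs, and no red point lies left of the first of them.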

How the data were processed

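The authors' deposited table holds 1 log2 ratio per contig and array, whose base and direction are not stated. Sample over reference was taken because contigs bright in the reference tended to low ratios (rho -0.36 by Spearman, -0.46 to -0.18 on single arrays). If the base were e, a change of 1 would be a larger fold. How images, background and filters were handled is not given in the sources used here. The array medians were 0 and 121 of 14880 cells were empty. The deposited scanner table gives intensity for numbered slides that match no sample label, so 59 columns were not used, and only the reference foreground of slide 1 was. Slides were not matched to arrays by their values, which could bear on base and direction, and no test from scanner intensities was run.

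Sites were compared with limma 3.58.1 in R 4.3.3 (lmFit, eBayes, no covariate, all 992 contigs and 15 arrays). Other values were computed in Python 3.11.15 with pandas 2.3.3 and scipy 1.17.1. The code for the choice of contigs and for the limma fit was checked on simulated data. The steady contigs and site changes set there stood out more clearly than those here, so that check does not measure precision here. Any p-value here refers to the spread between these samples, which may be partly technical. Array numbers follow the order of the sample identifiers and pair nothing, and no batch is labelled. Contigs named are the 2 with the most positive and the 2 with the most negative difference, the 2 with the smallest pooled SD, and those just inside and outside the limit. Contigs, tests and naming rule were chosen with earlier results of these data known. Alternatives were other array scales, limma settings, measures of spread, windows and each array left out.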

Additional observations from a re-analysis of the deposited data

How the results depend on the processing

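When the 100 contigs were chosen again, 84 of them were chosen with arrays scaled to equal median absolute deviation, 91 with equal SDs, and all 100 with up to 2 empty cells allowed. Only 64 were chosen with the median absolute deviation in place of the SD, and 58 with both site means within 0.5 of the pool, a window that leaves 229 contigs. Without 1 array, 88 to 94 were chosen again, and 77 were chosen in all 15 cases. The median size of the site difference (0.103) was 0.120 and 0.114 under the 2 scalings and 0.0908 to 0.121 without 1 array. The median ratio of Gironde to Certes SD (1.06) fell to 0.960 and 0.962 under the scalings, which equalise array widths by construction, and ran from 0.999 to 1.16 without 1 array. The count at an adjusted p of 0.05 was 0 in every fit, and the count of 7 at the unadjusted threshold was 5 to 10 without 1 array (7.56% to 13.8% of all contigs) and 5 to 8 under the scalings and other limma settings (7.16% to 12.5%). With unequal variances per contig it was 15 (1 higher, 14 lower; 7.66% of all contigs), and the cause was not tested. Lower means in Gironde were found in 69 to 77 of the 100 contigs without 1 array, and in 73 and 74 under the scalings. The held-out SD ratios (0.622 and 0.705) were at most 0.756 and 0.831 in the alternatives planned, and 0.658 and 0.730 among contigs above the median brightness, an alternative chosen after seeing the data. By the mean of the 3 spots, 89 contigs and not 91 lay above the median brightness. No named contig among the 100 changed direction. Under the scalings contig_15916 went from 0.31 to 0.17 and 0.19, and contig_10762 from 0.37 to 0.26 and 0.27. The difference of contig_38124 went from -0.42 to -0.31 in both, and that of contig_32220 from -0.49 to -0.44 and -0.45. That of contig_39900 grew, from -0.24 to -0.28 in both. For contig_10762 and contig_38124 the unadjusted p of limma was 0.028 and 0.015, and 0.067 to 0.109 under the scalings. For contig_39900 the unadjusted p of limma went the other way, from 0.056 to 0.024 and 0.026 under the scalings. Foreground minus background was not run, since that column was not used. No paired analysis was run, since the labels pair no Certes sample with a Gironde sample.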

Other observations

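Among 24 sets of values reported here (4 per-array measures and 8 named contigs in each site), 0 held an array that stood apart from the rest by Dixon's criterion, which chance marks in about 1 in 20 sets. Over all 100 contigs and both sites, 15 of 200 sets held one. Gironde 6 was that array in 3 sets, Certes 1, Certes 3 and Gironde 4 in 2 each, and every other array in at most 1. As the contigs were chosen for a small SD, sets with a far outlying array had less chance to enter.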
